A study of Homo sapiens with 12 samples.

Results

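The genes of chromosome 2 that lie between ACP1, near the end of the short arm, and POLR2D, on the long arm, were examined as 1 stretch. The members were the rows of the deposited gene table from ACP1 through POLR2D whose mean over the 12 libraries was at least 5 CPM (read counts scaled to the size of the library). The rule gave 410 genes of the 56638 rows of the table, against 2125 rows that the stretch holds in all, 1715 of which were under the minimum. The lowest members were ANKRD39 at a mean of 5.1 CPM and FOXN2 at 5.2 CPM, and the highest rows left out were SH3RF3 at 4.93 CPM and AC073283.4 at 4.91 CPM. On the short arm lay 312 members and on the long arm 98, and GENCODE names 392 of the 410 as protein-coding. The stretch was chosen by measured values, the knockout-to-control ratios of its genes in cultures with and without retinoic acid, which were lower than those of the rest of the chromosome. The knockout-to-control values below therefore describe the members and test nothing.

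The study measured mRNA in NT2/D1, a human embryonal carcinoma cell line whose cells are pluripotent and start to differentiate toward neurons when given all-trans retinoic acid (ATRA). The 4 groups were CRISPR/Cas9 control cells untreated, PRMT6 knockout cells untreated, control cells with 1 µM ATRA for 3 days and knockout cells with the same ATRA treatment, with 3 libraries in each. PRMT6 is an arginine methyltransferase that modifies histone H3. The labels name 1 knockout line only and say nothing of separate cultures within a group. The p-values therefore reflect spread among libraries that may be technical replicates, and a difference between genotypes cannot be told apart from a difference between 2 cell lines. In such bulk samples, fewer cells that express a gene and less RNA per cell cannot be told apart.

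Genes that are neighbours on a chromosome need not share a function, and the short arm of chromosome 2 carries unrelated genes such as MYCN, RAB10 and XPO1. Neighbours do share their DNA segment, its replication timing and its copy number, and cultured tumour lines can gain or lose whole segments or arms. Clones grown from 1 edited cell can differ in this way too. DNA was not analysed here, so these mechanisms are background only.

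Promoter sequences show how unlike each other the members are. The 4 below belong to ZNF512 and PQLC3, which had the lowest fitted ratios untreated, to EPAS1, which was higher in the untreated knockout, and to NDUFAF7, which shares its promoter with another member. They are RefSeq windows on GRCh38.p14 from 250 bases before to 50 after the start of the gene, read 5′ to 3′ on the plus strand, which is the strand of all 4 genes. The windows lie at chr2:27582792-27583091, chr2:11155217-11155516, chr2:46297157-46297456 and chr2:37231408-37231707, in that order. The letters CG, the dinucleotide that can be methylated in DNA and that reads the same on both strands, are in capitals.
ZNF512: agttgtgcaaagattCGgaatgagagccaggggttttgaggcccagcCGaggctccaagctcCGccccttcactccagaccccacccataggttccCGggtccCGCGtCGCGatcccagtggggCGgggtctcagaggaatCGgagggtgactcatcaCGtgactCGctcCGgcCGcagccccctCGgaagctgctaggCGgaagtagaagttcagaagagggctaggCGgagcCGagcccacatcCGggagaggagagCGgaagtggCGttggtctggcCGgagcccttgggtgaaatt
PQLC3 (SLC66A3 in RefSeq): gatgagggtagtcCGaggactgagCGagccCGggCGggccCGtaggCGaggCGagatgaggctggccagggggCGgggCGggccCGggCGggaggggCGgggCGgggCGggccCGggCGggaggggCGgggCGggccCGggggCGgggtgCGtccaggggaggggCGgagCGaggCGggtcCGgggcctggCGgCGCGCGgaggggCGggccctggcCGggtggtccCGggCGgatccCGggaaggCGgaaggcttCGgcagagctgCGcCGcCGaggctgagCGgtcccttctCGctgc
EPAS1: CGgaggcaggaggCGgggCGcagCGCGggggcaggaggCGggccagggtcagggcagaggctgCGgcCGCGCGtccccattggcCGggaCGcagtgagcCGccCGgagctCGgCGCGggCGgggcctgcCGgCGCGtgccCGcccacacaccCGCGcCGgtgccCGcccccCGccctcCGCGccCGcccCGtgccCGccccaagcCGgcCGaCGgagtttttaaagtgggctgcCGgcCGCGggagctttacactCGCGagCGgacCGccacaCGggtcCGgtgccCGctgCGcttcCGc
NDUFAF7: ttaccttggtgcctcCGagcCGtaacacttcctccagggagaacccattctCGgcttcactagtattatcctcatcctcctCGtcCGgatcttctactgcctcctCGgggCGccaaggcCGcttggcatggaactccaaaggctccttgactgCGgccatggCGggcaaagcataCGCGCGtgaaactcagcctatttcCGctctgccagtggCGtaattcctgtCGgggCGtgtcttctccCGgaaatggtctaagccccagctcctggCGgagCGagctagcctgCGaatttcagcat
The ZNF512 window holds 22 CG, a count that 37.7% of all 35116 promoter windows reach or pass. The PQLC3 window holds 41 (reached by 6.69%), the EPAS1 window 47 (2.41%) and the NDUFAF7 window 21 (39.5%). The NDUFAF7 window overlaps by 161 bases that of CEBPZ, a gene of ribosome assembly on the other strand. The 357 members that matched a window on chromosome 2 had a median of 29 CG, against 14 over all windows. That median was 29 both in the 160 members that passed the edgeR test as lower in untreated knockout and in the 197 that did not.

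PRMT6 itself matched the labels, at 22.4, 1.94 and 8.94 CPM in untreated control and 29.9, 15.9 and 26.8 CPM in control with ATRA, and at 0 to 0.0587 CPM in all 6 knockout libraries. Totals ran from 25.5 to 60.4 M counts. The libraries differed in base composition: the rank correlation across genes between a gene's GC content and its level in a library ran from -0.497 to 0.098 in control and from 0.226 to 0.618 in knockout, so a trend on GC was removed before neighbouring genes were compared. Within the knockout, libraries 1 and 2 untreated, and libraries 1 and 3 with ATRA, were far closer to each other than other libraries of a group, with a chi-square per gene of 9.01 and 1.91, against 78.1 to 416 for the other pairs. Each pair still differed beyond counting noise, so both libraries were kept, and counts with each pair summed to 1 are given beside the main ones. The pluripotency markers POU5F1 and NANOG had counts in all 12 libraries. The 12 pluripotent markers summed to 5460 to 8200 CPM in untreated control and 5370 to 8710 CPM in untreated knockout. With ATRA they summed to 3720 to 5090 CPM in control and 2500 to 3690 CPM in knockout, with no overlap. SOX2 stood at 156, 279 and 183 CPM in untreated control and 50.7, 47.3 and 78.9 CPM in untreated knockout, and ZFP42 was near 0 throughout. Of the 11 tested, edgeR called 1 lower in each state, against 21.9% and 4.24% of all genes. The 12 fibroblast and stromal markers summed to 849 to 967 CPM in untreated control and 671 to 2410 CPM in control with ATRA. They summed to 14000, 14700 and 2890 CPM in untreated knockout and to 13100, 2930 and 13000 CPM in knockout with ATRA, so the same 4 libraries that formed the close pairs were the high ones.

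The stretch was lower in every knockout library than in every control library, and ATRA moved it little. Its level in a library is the median of the members less the median of the other 320 chromosome 2 genes, on log2(CPM + 0.5) after each gene's mean and the library's GC trend were removed; 400 members had a GC value. The untreated control libraries stood at 0.24, 0.34 and 0.22, and the untreated knockout libraries at -0.30, -0.29 and -0.23. With ATRA the control libraries stood at 0.25, 0.32 and 0.27, and the knockout libraries at -0.32, -0.21 and -0.32. The genotypes did not overlap in either state, and the libraries of each genotype kept to a narrow band.

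**Figure D1:**
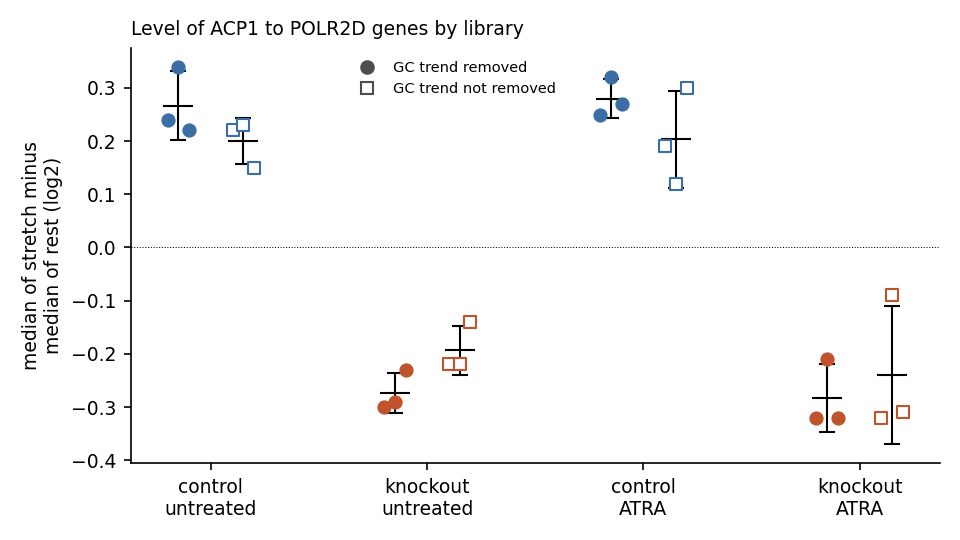
Level of the stretch in each library (vertical axis, log2; median of members less median of the rest of chromosome 2) by group, with the GC trend removed (filled circles) and not removed (open squares); black bars are the mean and SD of the 3 libraries. All 6 knockout libraries lie below 0 and all 6 control libraries above 0 by both measures, and the ATRA groups sit at the heights of their untreated counterparts.

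The knockout mean was -0.27 ± 0.04 (SD, n = 3) against 0.27 ± 0.066 (SD, n = 3) in untreated control, a difference of -0.54, or a ratio of 0.688. With ATRA it was -0.28 ± 0.063 (SD, n = 3) against 0.28 ± 0.034 (SD, n = 3), a difference of -0.56, or a ratio of 0.676. Both differences were several times the SD between libraries. The knockout libraries with the lowest stromal marker sums, untreated knockout 3 and knockout with ATRA 2, had levels of -0.23 and -0.21. They were the least low of their groups, where the others stood at -0.30 and -0.29 untreated and at -0.32 with ATRA. Without GC removal the knockout libraries ranged from -0.32 to -0.09 and the control libraries from 0.12 to 0.30, again with no overlap. Those with the lowest stromal sums then stood at -0.14, against -0.22 in the other untreated knockout libraries, and at -0.09, against -0.32 and -0.31 with ATRA. The part of the stromal transcripts in this was not tested. In untreated control library 3 the members' own median was 0.04, against 0.25 and 0.31 in libraries 1 and 2, while the rest of the chromosome stood at -0.17.

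The effect of ATRA within each genotype, which the choice of the stretch did not use, was small. In control cells the level differed by 0.01 between ATRA and untreated (two-sided exact permutation test, p = 0.7, adjusted p = 0.7 over the 3 tests), and in knockout cells by -0.01 (exact permutation test, p = 0.6, adjusted p = 0.7). The knockout-to-control difference changed by -0.02 with ATRA (exact permutation test, p = 0.65, adjusted p = 0.7). That change is built from the knockout-to-control values that chose the stretch as low in both states, so its test decides nothing. With 3 libraries against 3 the first 2 tests cannot give a p below 0.1, so these values show only that any change was within the spread between libraries.

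Gene by gene the difference ran through most of the stretch and varied widely around its median. On the GC-corrected log2 scale the median knockout-to-control difference of the 400 members was -0.46 untreated, with quartiles at -0.85 and -0.05, and -0.50 with ATRA, with quartiles at -0.85 and -0.19. Below 0 lay 310 members untreated (77.5%) and 327 with ATRA (81.8%), and 292 (73.0%) in both states. Across the other chromosomes 35.5% of genes were below 0 in both states, and on the rest of chromosome 2, 31.6%. The members' median was near the same size at every level of expression: it was -0.50, -0.49 and -0.40 untreated in the members of low, middle and high mean CPM, 133 or 134 genes each, and -0.46, -0.54 and -0.54 with ATRA. By GC content of the transcript it was -0.56, -0.43 and -0.34 untreated and -0.48, -0.54 and -0.50 with ATRA.

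Without any GC correction, 211 members (51.5%) had all 3 untreated knockout libraries below all 3 controls, against 27.0% of the 19130 genes tested, and 220 (53.7%) did so with ATRA, against 17.9%. On the rest of chromosome 2 the shares were 41.8% untreated and 21.5% with ATRA. All 6 knockout libraries were below all 6 control libraries for 133 members (32.4%), against 7.87% of all genes tested and 11.8% of the rest of chromosome 2. The reverse held for 3 members, OSR1, SLC8A1 and PSD4, against 6.96% of all genes tested.

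In the edgeR quasi-likelihood test, at an adjusted p under 0.05, 183 members (44.6%) were lower and 16 (3.90%) higher in untreated knockout, against 21.9% and 13.0% of all genes tested. With ATRA 99 members (24.1%) were lower and 4 (0.976%) higher, against 4.24% and 3.27%. On the rest of chromosome 2, 34.8% of genes were lower and 12.7% higher untreated, and 6.36% and 3.64% with ATRA. Lower in both states were 86 members, against 3.1% of all genes tested, higher in both were OSR1 and SLC8A1, against 2.41%, and none changed direction. With a GC offset in the same edgeR model, 110 members were lower untreated, against 9.35% of all genes, and 81 with ATRA, against 3.47%. The count with ATRA depended on which libraries were kept. With each close pair summed, edgeR called 78 members lower untreated, against 3.38% of all genes, and with ATRA ZNF512 and LCLAT1 alone, against 0.111%. Without knockout library 1 or 3 with ATRA, 16 and 12 members were lower, against 0.426% and 0.36%. Without knockout library 2 or control library 2 with ATRA, 51 and 50 were lower, against 1.74% and 1.78%. The cause of these differences was not tested. The median edgeR log2 fold change of the members was -0.69 in both states, against -0.11 and -0.06 over all genes tested. Another 282 rows of the stretch passed the edgeR filter but not the 5 CPM minimum, and 73 of these were lower and 5 higher untreated, and 16 lower and 4 higher with ATRA. Of all genes tested 21.9% were lower and 13.0% higher untreated, and 4.24% and 3.27% with ATRA, so the lower shares of these rows were near those of all genes. Their median log2 fold change was -0.75 untreated and -0.54 with ATRA, nearer to the -0.69 of the members than to the medians of all genes.

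Position along the chromosome in part chose the members, so the values along it are a description. Consecutive blocks of 25 members were taken in order from ACP1, with a last block of 10. The 15 blocks from ACP1 to CKAP2L all had medians below 0, from -0.91 to -0.21 untreated. The block from PSD4 to GYPC had a median of -0.10 untreated and -0.13 with ATRA, and the last block, from BIN1 to POLR2D, 0.24 and -0.22. Untreated, these last 2 blocks lay within the range of the 14 blocks of the rest of the chromosome, which was -0.32 to 0.52, as did the block from POLE4 to MRPL35 at -0.21. That block, the one from VPS54 to GMCL1 and the last 2 were the 4 of 17 in which the 6 knockout libraries and the 6 control libraries overlapped, over both states. With ATRA that range was -0.19 to 0.32, and the last block lay just below it.

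**Figure D2:**
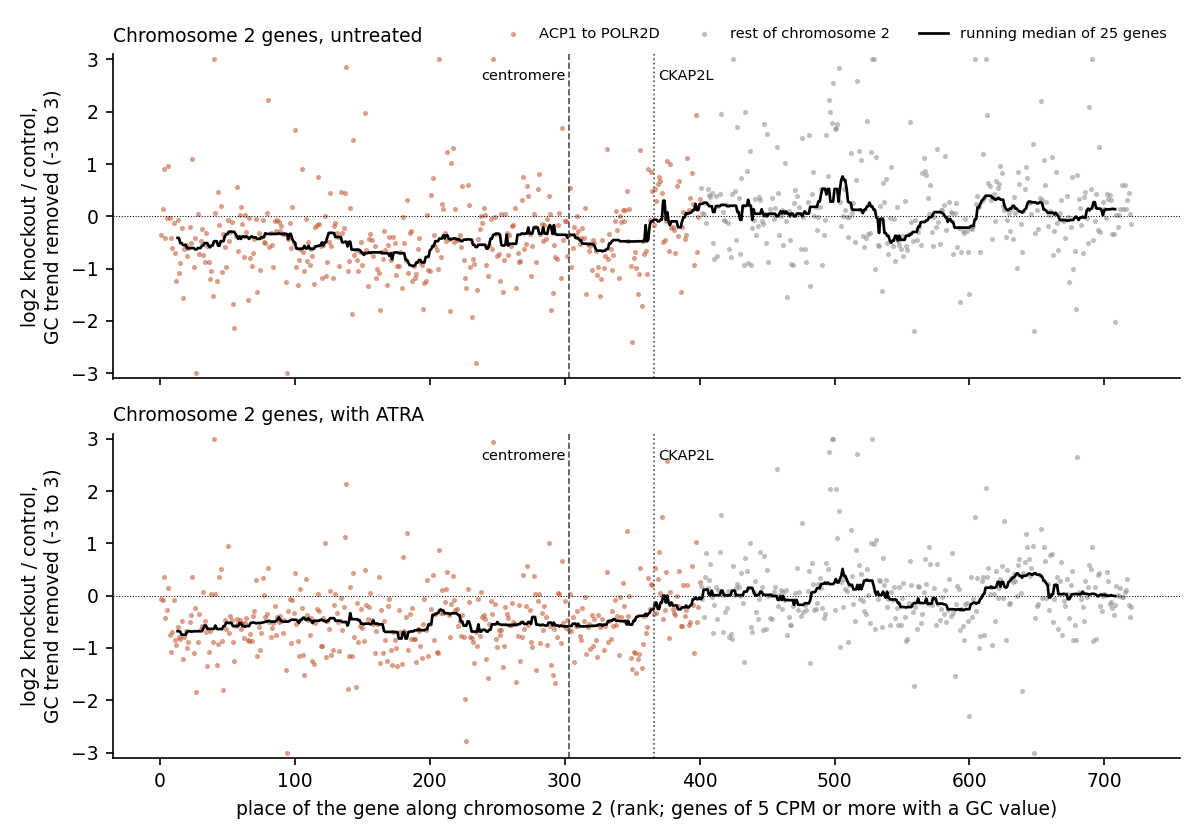
Knockout-to-control log2 difference with the GC trend removed (vertical axis, values beyond -3 and 3 drawn at the edge) of each chromosome 2 gene by its rank along the chromosome (horizontal axis), untreated above and with ATRA below; orange points are the members, grey points the rest, the line a running median of 25 genes, the dashed line the centromere and the dotted line CKAP2L. The running median stays below 0 from the left end across the centromere to near CKAP2L in both panels. From PSD4 to POLR2D it runs around 0 untreated and mostly below 0 with ATRA, from -0.26 to 0.002. Beyond POLR2D it runs around 0 in both panels.

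The lower values did not stop at the centromere. The short-arm members had a median of -0.50 untreated and -0.55 with ATRA (303 with a GC value), and the long-arm members -0.35 and -0.39 (97 with a GC value). The lowest block untreated ran from RTN4 to UGP2, at -0.91, and it stood at -0.69 with ATRA. Taken alone, the members from ACP1 to CKAP2L stood -0.58 untreated and -0.59 with ATRA relative to the rest of the chromosome, by the library level above, and those beyond CKAP2L 0.01 and -0.08. That split was chosen after the values were seen. With ATRA the running median passed the midpoint between the stretch and the rest at PSD4. Untreated it first touched the midpoint at POLR1A, at -0.17, and then went lower again, to -0.67 at TXNDC9. By MRPS9 it stood at -0.45, and it rose further near CKAP2L.

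**Figure D3:**
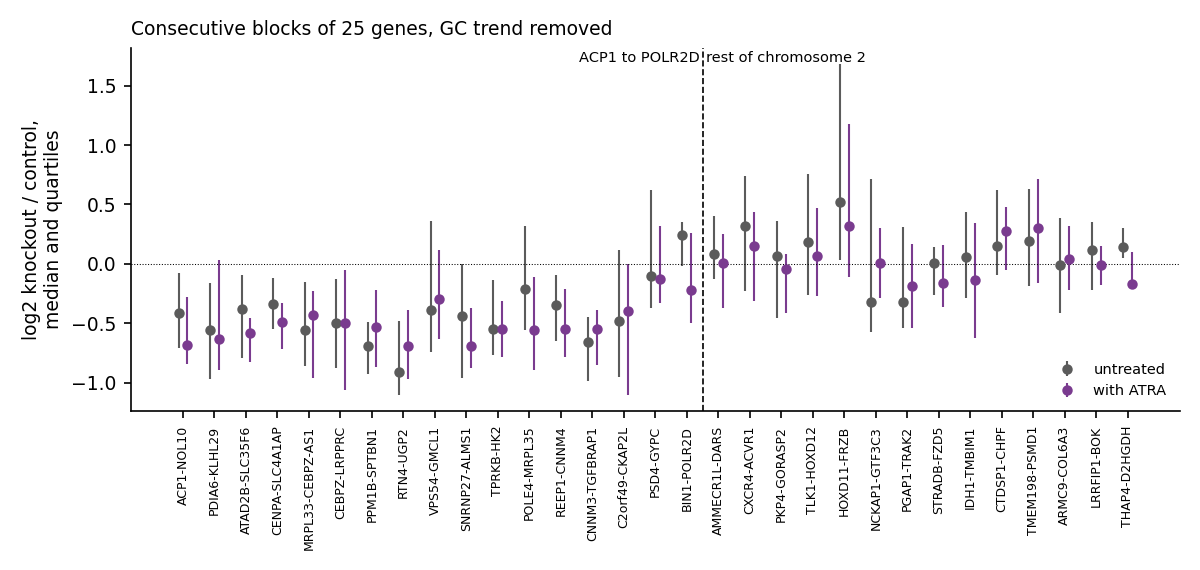
Median knockout-to-control log2 difference with the GC trend removed (vertical axis; points are medians, bars the quartiles) in consecutive blocks of 25 genes named by their first and last gene (horizontal axis), untreated in grey and with ATRA in purple. The first 15 blocks, to CKAP2L, lie below 0 in both states, and the blocks right of the dashed line scatter on both sides of 0.

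The first members at the short-arm end differed among themselves. ACP1, a low molecular weight protein tyrosine phosphatase and the first member, measured 138, 180 and 117 CPM in untreated control and 59.6, 58.9 and 86.8 CPM in untreated knockout, with no overlap. Its log2 fold change was -1.08 ± 0.24 (SE; edgeR adjusted p = 0.00715), but -0.33 with the GC offset (adjusted p = 0.397), and with ATRA it was -0.42 ± 0.24 (edgeR adjusted p = 0.265). ACP1 overlaps SH3YL1 on the other strand. TMEM18, a nuclear membrane protein and the next member, had log2 fold changes of -0.16 ± 0.24 and -0.25 ± 0.24. PXDN, a peroxidase of the extracellular matrix, was higher untreated, at 574, 606 and 398 CPM against 366, 121 and 181 CPM (log2 fold change 1.24 ± 0.41, edgeR adjusted p = 0.0336), a call that the GC offset removed (adjusted p = 0.11).

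At the other end, POLR2D, a subunit of RNA polymerase II, stood at 62.2, 47.8 and 45.6 CPM in untreated control and 55.9, 49.0 and 58.3 CPM in knockout, and the groups overlapped. With ATRA its control libraries ran from 44.4 to 48.5 CPM and its knockout libraries from 46.3 to 57.0 CPM. WDR33, part of the machinery that cleaves and polyadenylates mRNA, had log2 fold changes of -0.43 ± 0.16 (edgeR adjusted p = 0.0569) and -0.38 ± 0.16 (edgeR adjusted p = 0.155), and the Golgi traffic gene SFT2D3, which it overlaps, 0.06 ± 0.22 and -0.20 ± 0.22. The first 3 genes of at least 5 CPM past POLR2D, AMMECR1L, SAP130 and UGGT1, had untreated log2 fold changes of 0.44, 0.43 and -0.30, none of which passed the edgeR test.

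ZNF512, a zinc finger protein gene on the short arm, was the member with the lowest ratio in both states and nearly lost its counts in knockout cells. It measured 32.5, 21.2 and 25.1 CPM in untreated control and 21.9, 24.9 and 40.5 CPM in control with ATRA. In untreated knockout it had 3, 3 and 0 counts, and with ATRA 0, 9 and 5 counts. By summed counts, the knockout level was 0.245% of control untreated (95% exact interval 0.09% to 0.535%) and 0.425% with ATRA (0.232% to 0.715%), intervals that cover counting error only. It passed the edgeR test in both states (adjusted p = 0.000249 and 0.000305), and was still called with the close pairs summed and with the GC offset. Of the 6 knockout libraries 4 held a few counts of it and 2 held none.

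PQLC3, a membrane protein with PQ loops, was next untreated, at 25.2, 47.8 and 20.8 CPM in untreated control and 2.57, 2 and 2.74 CPM in untreated knockout (log2 fold change -3.69 ± 0.52, edgeR adjusted p = 0.0021). With ATRA it measured 9.38, 34 and 10.8 CPM against 3.13, 4.31 and 3.25 CPM (-2.34 ± 0.49, edgeR adjusted p = 0.0174). The groups did not overlap in either state. CCDC138, a centrosomal protein of the long arm, had log2 fold changes of -3.20 ± 0.47 and -1.83 ± 0.45 (edgeR adjusted p = 0.00249 and 0.0317), the second of which the GC offset moved to an adjusted p of 0.0529. WDR35, a part of the transport machinery of the cilium, was lower by -2.50 ± 0.41 and -2.15 ± 0.40 (edgeR adjusted p = 0.00293 and 0.0111) and passed with the GC offset too.

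Some of the largest decreases were seen in 1 state. PAIP2B, which restrains translation through poly(A)-binding protein, had a log2 fold change of -2.91 ± 0.46 untreated (edgeR adjusted p = 0.00286) and -1.27 ± 0.44 with ATRA (adjusted p = 0.0872). UGP2, which makes the UDP-glucose used for glycogen, varied widely among its own controls, at 33.6, 348 and 127 CPM untreated, against 25.1, 19.5 and 24.5 CPM in knockout. Its untreated log2 fold change was -2.88 ± 0.63 (edgeR adjusted p = 0.00719), and with ATRA -0.60 ± 0.59 (adjusted p = 0.539). ETAA1, an activator of the replication stress kinase ATR, had -2.81 ± 0.61 untreated (edgeR adjusted p = 0.00705), which the GC offset moved to -1.03 (adjusted p = 0.0632). With ATRA its GC-corrected difference was -0.34. The difference between the states was itself tested by the interaction term, which edgeR called for none of the 410 members, and for 0.0% of all genes tested. At an unadjusted edgeR p under 0.05 were 42 members (10.2%), against 9.92% of genes on other chromosomes, and DESeq2 called 0 members. The interaction is built from the knockout contrasts that chose the stretch, so these counts only describe the members.

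With ATRA, ATP6V1B1, a subunit of the proton pump of acid-secreting cells, measured 25.3, 6.24 and 13.4 CPM in control and 1.74, 1.56 and 1.85 CPM in knockout (-3.12 ± 0.55, edgeR adjusted p = 0.00961). REEP1, which shapes the endoplasmic reticulum, measured 15.3, 9.72 and 15.2 CPM in control and 3.54, 2.32 and 3.17 CPM in knockout (-2.16 ± 0.36, edgeR adjusted p = 0.00746). ALMS1, a protein of the centrosome and of the base of the cilium, measured 27.3, 64.6 and 12.1 CPM against 8.43, 7.25 and 7.13 CPM (-2.19 ± 0.47, edgeR adjusted p = 0.0202). None of these 3 genes overlapped between the genotypes with ATRA, although the ALMS1 controls were spread over a wide range. Untreated, their GC-corrected differences were -1.36, -0.78 and -1.13, in the order named. With the close pairs summed, 1 of the 26 calls with ATRA among the named genes, that of ZNF512, passed the edgeR test, and 23 of the 35 untreated ones did. Leaving out 1 library at a time ended 4 of the 35 untreated calls, those of ALMS1, EMILIN1, MEIS1 and PXDN, and 22 of the 26 with ATRA, with adjusted p up to 0.152. The 4 kept with ATRA were ANAPC1, RAB10, REEP1 and ZNF512.

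**Figure D4:**
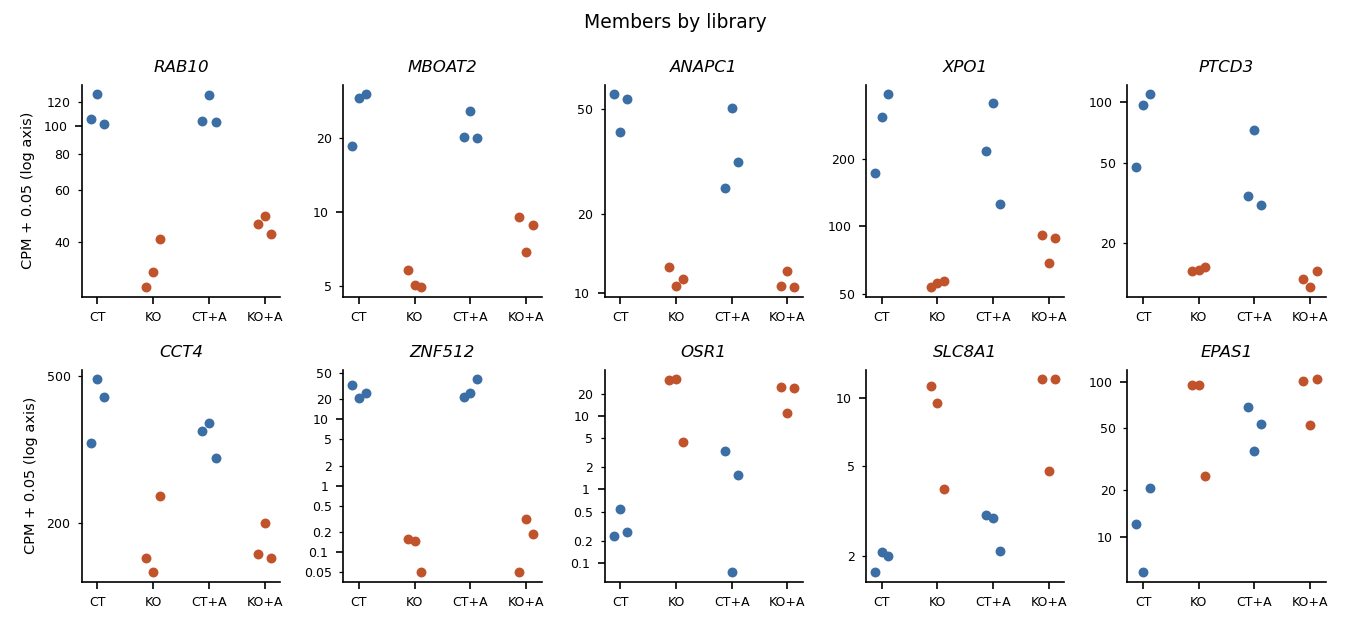
CPM plus 0.05 on a log axis (vertical) of 10 members in each library, for control untreated (CT), knockout untreated (KO), control with ATRA (CT+A) and knockout with ATRA (KO+A), 3 points a group in the order of replicate number; control is blue and knockout orange. The 7 genes from RAB10 to ZNF512 have every knockout library below every control library; OSR1 and SLC8A1 have them above, and EPAS1 does so in the untreated groups.

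The members in the fixed functional lists had median GC-corrected differences below 0 across lists of unrelated roles. The lists hold only members of a stretch chosen for low values, so these medians describe them and test nothing. The lists were taken from general knowledge of function and hold 185 of the 410 members. Among the 17 genes of genome maintenance and cell cycle, edgeR called 11 lower untreated and 7 with ATRA, with median GC-corrected differences of -0.82 and -0.68. Against this and the counts of the lists below, 21.9% of all genes tested were lower and 13.0% higher untreated, and 4.24% and 3.27% with ATRA. Of all 410 members 44.6% were lower and 3.90% higher untreated, and 24.1% and 0.976% with ATRA. These list counts are from the edgeR fit without the GC offset, while the medians beside them are GC-corrected. ANAPC1, the largest subunit of the ubiquitin ligase that drives exit from mitosis, measured 56.9, 41.0 and 54.4 CPM in untreated control, 12.5, 10.6 and 11.3 CPM in untreated knockout, 25, 50.4 and 31.3 CPM in control with ATRA and 10.6, 12.1 and 10.5 CPM in knockout with ATRA. The knockout values were tight and well below each control (log2 fold changes -2.14 ± 0.27 and -1.69 ± 0.27, edgeR adjusted p = 0.00141 and 0.00584). GEN1, a nuclease that cuts DNA crossovers, was lower untreated (-2.40 ± 0.38, edgeR adjusted p = 0.00286) and had -1.26 ± 0.36 with ATRA (adjusted p = 0.0521). It overlaps SMC6, which the same list holds. The DNA repair gene MSH6 and the spindle checkpoint kinase gene BUB1 were called lower in both states. With the GC offset BUB1 passed in both, while MSH6 untreated (edgeR adjusted p = 0.0693) did not.

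RNA processing and export had the most calls in that fit: 20 of 24 genes were lower untreated and 12 with ATRA. Its median log2 fold change without GC correction was -1.62 untreated and -1.42 with ATRA, and its GC-corrected medians were -0.78 and -0.80. The chromatin and RNA polymerase list below moved the other way untreated, from -0.11 to -0.30 with the correction. XPO1, the main exporter of proteins from the nucleus, measured 173, 306 and 388 CPM in untreated control and 53.4, 55.5 and 56.6 CPM in untreated knockout. With ATRA it measured 217, 355 and 125 CPM against 91.0, 68.3 and 88.1 CPM. The control libraries spread widely in each state while the knockout libraries stayed close together, and the groups did not overlap (-2.39 ± 0.37 and -1.50 ± 0.36, edgeR adjusted p = 0.00274 and 0.0288). PTCD3, which binds the ribosomal RNA of the mitochondrion, stood at 47.5, 95.8 and 109 CPM against 14.5, 14.7 and 15.2 CPM untreated (-2.51 ± 0.37, edgeR adjusted p = 0.00248), and was also lower with ATRA (-1.79 ± 0.36, edgeR adjusted p = 0.015).

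Translation and ribosomal proteins had 9 of 13 members lower untreated and 3 with ATRA (medians -0.61 and -0.64), and the mitochondrial list, which shares members with both lists above, 11 of 21 and 7 (-0.61 and -0.48). The mitochondrial ribosome genes MRPL35 and MRPS9 were lower in both states, by -1.49 ± 0.24 and -1.16 ± 0.24 (edgeR adjusted p = 0.00293 and 0.0173) and by -1.70 ± 0.33 and -1.49 ± 0.32 (edgeR adjusted p = 0.00468 and 0.0205). The GC offset removed both calls of MRPL35 (adjusted p = 0.165 and 0.159) and neither of MRPS9. NDUFAF7, an assembly factor of respiratory complex I, measured 19.2, 25 and 18.4 CPM in untreated control and 5.27, 5.92 and 7.06 CPM in knockout (-1.78 ± 0.27, edgeR adjusted p = 0.00264). CEBPZ, across their shared promoter, was also lower untreated (-2.29 ± 0.52, edgeR adjusted p = 0.00814). With ATRA NDUFAF7 had -0.93 ± 0.26 (adjusted p = 0.0517) and CEBPZ -1.95 ± 0.52 (edgeR adjusted p = 0.0403, or 0.0577 with the GC offset).

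Vesicle traffic and cytoskeleton had 12 of 24 lower untreated and 8 with ATRA (medians -0.56 and -0.62). RAB10, a small GTPase of exocytosis, measured 105, 128 and 101 CPM in untreated control and 28.0, 31.4 and 40.9 CPM in untreated knockout, and 104, 127 and 103 CPM against 45.9, 49.1 and 42.6 CPM with ATRA. The controls hardly differed between states and the knockout libraries were all far below them (-1.73 ± 0.20 and -1.28 ± 0.20, edgeR adjusted p = 0.00116 and 0.00557). EXOC6B, a subunit of the exocyst, which tethers vesicles to the cell membrane, was lower by -1.81 ± 0.23 and -1.22 ± 0.23 (edgeR adjusted p = 0.00142 and 0.0119).

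Protein folding and turnover had 8 of 14 lower untreated and 3 with ATRA (medians -0.42 and -0.46). CCT4, a subunit of the ring chaperonin that folds actin and tubulin, measured 329, 489 and 437 CPM against 160, 147 and 236 CPM untreated (-1.21 ± 0.23, edgeR adjusted p = 0.00458) and was lower with ATRA (-0.97 ± 0.23, adjusted p = 0.0283). FBXO11, a substrate receptor of a ubiquitin ligase that overlaps MSH6, had -1.46 ± 0.19 and -1.07 ± 0.19 (edgeR adjusted p = 0.00169 and 0.00989). The GC offset removed the calls of both genes in both states, and moved FBXO11 to -0.27 and -0.47.

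Signalling had 8 of 19 lower untreated and 2 with ATRA (medians -0.37 and -0.52). The protein phosphatase gene PPM1B was lower in both states (-1.56 ± 0.26 and -1.08 ± 0.25, edgeR adjusted p = 0.00294 and 0.0264), the second of which did not pass with the GC offset (adjusted p = 0.0865). PPP3R1, the regulatory subunit of calcineurin, was lower untreated (-1.19 ± 0.19, edgeR adjusted p = 0.00294), a call the GC offset removed (adjusted p = 0.415). Metabolism and transport had 9 of 24 lower and 1 higher untreated, and 5 lower and 1 higher with ATRA (medians -0.34 and -0.42). MBOAT2, an acyltransferase of membrane phospholipids, measured 18.5, 29.1 and 30.1 CPM against 5.76, 5.01 and 4.92 CPM untreated (-2.31 ± 0.26, edgeR adjusted p = 0.00116). MTHFD2, the mitochondrial folate enzyme high in dividing cells, was lower by -1.93 ± 0.31 and -1.22 ± 0.31 (edgeR adjusted p = 0.0029 and 0.034), the second of which did not pass with the GC offset (adjusted p = 0.0707).

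The list of chromatin and RNA polymerase genes had 6 of 17 lower in each state (medians -0.30 and -0.57). MTA3, a subunit of the NuRD complex, measured 145, 190 and 202 CPM against 61.8, 54.2 and 75.8 CPM untreated (-1.49 ± 0.25, edgeR adjusted p = 0.00333) and was lower with ATRA (-1 ± 0.25, adjusted p = 0.0348). TRMT61B, which the list holds although it methylates RNA in mitochondria, was lower too (-1.89 ± 0.30 and -1.25 ± 0.30, edgeR adjusted p = 0.00286 and 0.0283; 0.0516 with ATRA under the GC offset).

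**Figure D5:**
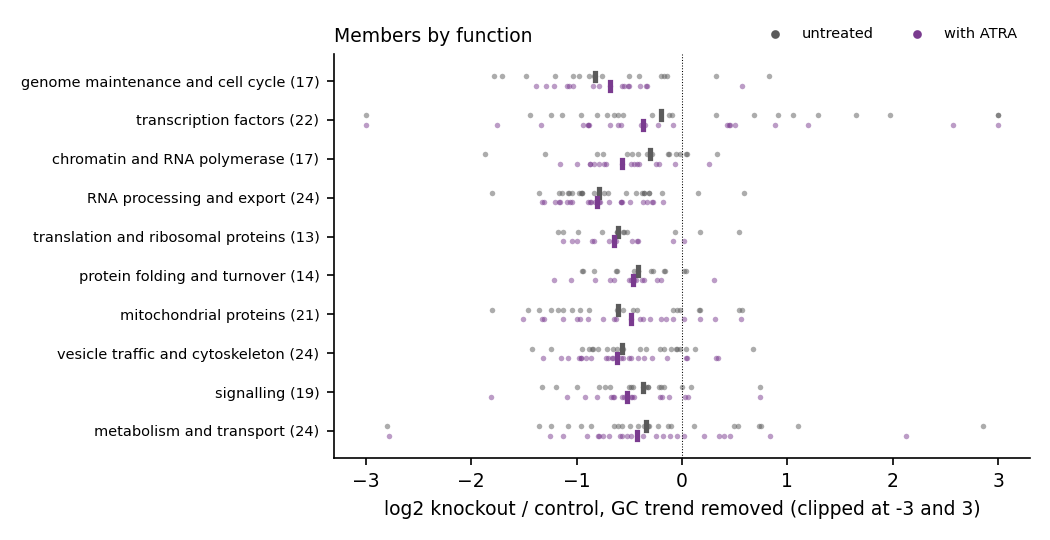
Knockout-to-control log2 difference with the GC trend removed (horizontal axis, clipped at -3 and 3) of the members of each functional list (rows, with the number of members), untreated in grey and with ATRA in purple; points are genes and thick bars medians. All 10 medians lie below 0 in both states, from -0.82 to -0.20 untreated and from -0.80 to -0.37 with ATRA, and the transcription factors spread the most.

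Transcription factors had the most calls in the higher direction among the 10 lists. Of 22, edgeR called 5 lower and 5 higher untreated, and 3 lower and 2 higher with ATRA (medians -0.20 and -0.37). Of all genes tested 21.9% were lower and 13.0% higher untreated, and 4.24% and 3.27% with ATRA, so the untreated lower share of this list was near that of all genes. E2F6, a repressor of the E2F family, was lower untreated, at 15.2, 14.7 and 14.7 CPM against 38.8, 28.0 and 31.8 CPM (-1.14 ± 0.21, edgeR adjusted p = 0.00401). MYCN, the proto-oncogene that marks neural progenitors, had -0.29 ± 0.47 and -1.31 ± 0.47, neither of which passed.

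The 5 higher untreated were OSR1, FOSL2, LBH, EPAS1 and MEIS1. OSR1, a zinc finger factor of the early mesoderm and kidney, measured 0.187, 0.493 and 0.216 CPM in untreated control and 30.9, 31.3 and 4.41 CPM in untreated knockout (6.18 ± 1.15, edgeR adjusted p = 0.00434). With ATRA it measured 3.29, 0.026 and 1.53 CPM against 24.3, 11.0 and 23.4 CPM (3.61 ± 1.01, edgeR adjusted p = 0.0491, or 0.0553 with the GC offset). All knockout libraries were above all controls, and the 2 knockout libraries with low stromal markers were the lowest of the knockout. MEIS1, a homeobox partner of the HOX proteins, followed the same order untreated, at 25.9, 26 and 6.42 CPM against 3.34, 0.898 and 3.33 CPM (2.95 ± 0.82, edgeR adjusted p = 0.0174), but with ATRA 2 of 3 controls were above all knockout libraries (-0.18 ± 0.75, adjusted p = 0.904). EPAS1, the hypoxia-inducible factor HIF-2 alpha, measured 95.0, 95.8 and 24.7 CPM against 12.1, 5.88 and 20.6 CPM untreated (2.48 ± 0.55, edgeR adjusted p = 0.00733).

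The other members that were highest in knockout shared that pattern. LIMS2, an adaptor of focal adhesions near the far end of the stretch, measured 41.0, 49.1 and 20.7 CPM against 10.3, 4.60 and 6.01 CPM untreated (2.41 ± 0.52, edgeR adjusted p = 0.0067), and it overlaps GPR17. EMILIN1, a glycoprotein of elastic fibres, measured 82.6, 101 and 33.2 CPM against 26.8, 3.15 and 15.9 CPM (2.24 ± 0.77, edgeR adjusted p = 0.0403, or 0.114 with the GC offset). SLC8A1, the sodium-calcium exchanger of the cell membrane, measured 11.2, 9.39 and 3.90 CPM against 1.65, 2.03 and 1.96 CPM untreated and 12, 4.67 and 12 CPM against 2.98, 2.88 and 2.05 CPM with ATRA (2.11 ± 0.44 and 1.86 ± 0.44, edgeR adjusted p = 0.00625 and 0.0283).

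In each of these 6 genes, OSR1, MEIS1, EPAS1, LIMS2, EMILIN1 and SLC8A1, the lowest knockout value was that of library 3 untreated and that of library 2 with ATRA. These are the libraries whose stromal markers summed to 2890 and 2930 CPM, against 13000 to 14700 CPM in the other 4. The stromal collagen gene COL3A1 stood at 1320 and 1670 CPM in them and at 10100 to 10900 CPM in the other 4, and DCN at 0.128 and 0.264 CPM against 17.9 to 27.9 CPM. The markers COL1A2, PDGFRA, THY1 and FBLN1 did not follow this pattern. COL1A2 stood at 47.3 CPM in untreated knockout library 3, against 36.0 and 38.0 CPM in libraries 1 and 2, and THY1 at 252 CPM against 236 and 245 CPM. Of the 12 stromal markers edgeR called 7 higher and 1 lower untreated, against 13.0% and 21.9% of all genes tested, and 3 higher with ATRA, against 3.27%. The part of these transcripts in the higher members was not tested. With ATRA the other 2 higher members were EN1, a homeobox gene of the midbrain, at 10.6, 6.69 and 10.9 CPM against 0.738, 1.66 and 0.674 CPM (3.19 ± 0.80, edgeR adjusted p = 0.0342), and KLHL29, at 23, 13.0 and 22.9 CPM against 5.26, 10.5 and 9.98 CPM (1.20 ± 0.30, adjusted p = 0.0331, or 0.0777 with the GC offset).

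The 3 members with the most reads per kilobase did not pass the edgeR test in either state. TMSB10, which binds actin monomers, averaged 1990 CPM per kilobase and had log2 fold changes of 0.66 ± 0.34 and -0.34 ± 0.34. OST4, a subunit of the enzyme that adds N-linked sugars, had 275 CPM per kilobase and changes of 0.37 ± 0.35 and -0.13 ± 0.35. RHOB, a small GTPase, had 253 CPM per kilobase and varied from 40.4 to 963 CPM among the untreated controls (-1.11 ± 0.80 and -1.59 ± 0.81). With ATRA the fitted change of each of the 3 was below 0.

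ATRA, tested within each genotype, called 1 member. PKDCC, a secreted tyrosine kinase, measured 232, 111 and 171 CPM in untreated control and 964, 547 and 550 CPM in control with ATRA (2.01 ± 0.33, edgeR adjusted p = 0.0464), with every treated library above every untreated one. That was 1 of 410 members (0.244%) against 0.0993% of all genes tested that were higher, and no member was lower, against 0.0157%. At an unadjusted p under 0.05 in edgeR, 76 members (18.5%) passed, against 20.3% of genes on other chromosomes, and DESeq2 called 33 (8.09% of the 408 with an adjusted p), against 8.39% on other chromosomes. In knockout cells PKDCC measured 81.3, 93.8 and 127 CPM untreated and 175, 259 and 179 CPM with ATRA, again without overlap (1.02 ± 0.32, edgeR adjusted p = 0.217). Its knockout-to-control log2 fold change was -0.76 ± 0.32 untreated (edgeR adjusted p = 0.0776) and -1.75 ± 0.32 with ATRA (adjusted p = 0.011). In knockout cells edgeR called no member for ATRA, against 0.0314% of all genes, with 58 (14.1%) at an unadjusted p under 0.05, against 12.3% on other chromosomes, and 15 (3.68%) by DESeq2, against 3.36%. The PKDCC call in control did not pass with the GC offset (adjusted p = 0.0572) or without untreated control library 2 or 3 or treated control library 1 or 3 (adjusted p 0.0648 to 0.213).

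The median of every other whole chromosome was nearer 0 than that of the stretch, a part chosen for its low values. Chromosome 2 as a whole had a median of -0.21 untreated and -0.27 with ATRA, close to chromosome 3 at -0.20 and -0.24. Over the 22 chromosomes other than 2 the median GC-corrected difference ran from -0.20 to 0.19 untreated and from -0.24 to 0.12 with ATRA. The lowest of these in both states was chromosome 3. Without it the range was -0.08 to 0.19 untreated and -0.07 to 0.12 with ATRA.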

How the data were processed

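Per the labels' protocols, RNA of NT2/D1 cells was sequenced from stranded mRNA libraries. The authors deposited raw counts per gene, with 1 column for each of the 12 libraries and no column of another sample, and a length for each gene. The submitters' processing notes name bcl2fastq, TopHat2, Subread, featureCounts and DESeq2 on hg19/GRCh37. Neither versions nor the strand setting of the counting are stated there, so overlapping genes on opposite strands cannot be told apart; 238 of the 400 members found in GENCODE overlap such a gene.

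Row order of the deposited table gave the place along the chromosome. GC content came from the longest GENCODE 44 transcript of the same or an older symbol. Counts were filtered with filterByExpr (minimum count 10, 19130 genes left), scaled by TMM and fitted over all 12 libraries with edgeR 4.0.16 (R 4.3.3, quasi-likelihood test, 1 coefficient per group, Benjamini-Hochberg over all genes). All edgeR adjusted p-values are of this kind, and errors of log2 fold changes are standard errors. Levels used log2(CPM + 0.5) of genes of at least 5 CPM, less a lowess trend on GC (span 0.5) fitted on the other chromosomes, and exact permutation tests. The fits were tested on simulated data.

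Alternatives were DESeq2 1.42.0 and its size factors, no filter, a GC offset, a replicate block, summed close pairs, other minimums and references, and each library left out. Named members were the first and last 3, the largest called changes whose libraries did not overlap (6 each way per knockout contrast, 3 per ATRA contrast), the 3 highest per kilobase and 2 called genes per functional list. LCLAT1, PSD4, FOSL2, LBH, CEBPZ, MSH6, BUB1, MYCN and CYP26B1 were named after their values were seen. Results of 1 member are not reported here. The members and lists were chosen with earlier results of these data known.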

Additional observations from a re-analysis of the deposited data

How the results depend on the processing

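The knockout-minus-control level of the stretch (-0.54 untreated, -0.564 with ATRA) stayed below 0 in every setting over the whole stretch. It was -0.396 and -0.443 without removal of the GC trend and -0.419 and -0.412 over the long arm only. Untreated it was -0.472 against the other chromosomes and -0.607 with means for medians. Members beyond CKAP2L alone, a setting chosen after seeing the data, gave 0.013 and -0.083. Leaving out 1 library gave -0.567 to -0.473 untreated and -0.603 to -0.54 with ATRA. The ATRA effect on the level had no stable sign: in control it was 0.012, but -0.018 with means and -0.004 on the long arm, and -0.014 to 0.07 with a library left out. In knockout it was -0.012, but 0.029 with means, 0.003 on either arm alone, and -0.05 to 0.023 with a library left out.

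Members called numbered 199 untreated, where edgeR called 6676 of all 19130 genes tested. They numbered 123 with the GC offset (3370 of 19130 genes) and 80 with close pairs summed (1072 of 19777). With ATRA 103 were called (1437 of 19130 genes), 55 with the replicate block (761 of 19130) and 2 with close pairs summed (71 of 19777). DESeq2 called 159 (2935 of 36681 genes). Without knockout libraries 3 untreated and 2 with ATRA, a setting chosen after seeing the data, 49 were called (881 of 19699 genes). Leaving out 1 library gave 12 to 126 with ATRA (219 of 19720 genes at 12 and 2077 of 19716 at 126). Untreated it gave 155 to 219 (3058 of 19777 genes at 155 and 8453 of 19748 at 219). For ATRA in control, 1 member was called, beside 22 of 19130 genes. DESeq2 gave 33 members (1679 of 36681 genes) and no filter 20 (1407 of 36681). The replicate block, the GC offset and the summed pairs gave 0 members and 0 to 6 genes. Omitting knockout libraries 3 untreated and 2 with ATRA gave 0 members and 3 genes. Leaving out 1 control library gave 0 to 56 members (2419 of 19711 genes at 56). In knockout, against 0 (6 of 19130 genes), DESeq2 called 15 (539 of 36681) and no filter 6 (272 of 36681). The interaction gave 0, and 0 to 4 with 1 library left out (135 of 19748 genes at 4). Of the named members' 62 calls, 21 passed under every setting and none changed direction.

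Replicate numbers did not pair the samples: same-numbered deviations correlated between -0.673 and 0.628. With them as a replicate block the untreated count was 190 (5772 of 19130 genes) and the ATRA count 55 (761 of 19130). All 35 untreated and 18 of 26 ATRA calls of named members passed. Counts near 0 CPM, as of ZNF512 in knockout, are limited by depth.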

Other observations

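CYP26B1, a member on the short arm that encodes an enzyme clearing retinoic acid, was named after its values were seen. It measured 3.58, 5.23 and 7.25 CPM in untreated control, 0.492, 0.425 and 1.03 CPM in untreated knockout, and 40.4, 5.64 and 8.53 CPM in control with ATRA. In knockout with ATRA it measured 2.38, 89.3 and 2.81 CPM. Library 2, outside the close pair, held nearly all of the knockout signal with ATRA, and no contrast passed the edgeR test (adjusted p = 0.0777 for knockout untreated, 0.675 for knockout with ATRA and 0.137 for ATRA in knockout).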
